A study of Homo sapiens with 33 samples.

Results

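Matrix metalloproteinases (MMPs), the ADAMTS proteases and the tissue inhibitors of metalloproteinases (TIMPs) were followed through a 14-day differentiation of human embryonic stem cells towards gonadal cells, with and without activation of the transcription factor FOXL2. The members were the protein-coding genes of the count table whose symbol is MMP, ADAMTS or TIMP followed by a number. This gave 46 genes, of which 23 are MMPs, 19 ADAMTS genes and 4 TIMPs, among 58735 genes and 19951 protein-coding genes. The rule used names and not measured values. All cells were H9-DDdCas9VP192-FOXL2 clone 24, a clonal derivative of the established H9 line that carries an activating dCas9 directed at the FOXL2 promoter. All were plated on human collagen and differentiated in intermediate mesoderm medium with stage-specific factors. Doxycycline (DOX), which switches the activator on, and trimethoprim (TMP), which stabilises it, were added from day 4 to the induced cells (IND), and the control cells (CTRL) received neither. The 33 poly(A) RNA-seq libraries were 3 technical replicates of 1 biological replicate in each of 11 groups, namely day 4 before induction, and CTRL and IND at 5 times from day 6 to day 14, 2 days apart. The p-values therefore measure the spread between wells of 1 differentiation of 1 clone, and the action of FOXL2 and that of DOX and TMP themselves cannot be told apart.

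MMPs are zinc proteases, most of them secreted as inactive proenzymes, that cut collagens, basement membrane and other matrix proteins. Membrane-type MMPs stay anchored at the cell surface, where MMP14 activates MMP2 in a complex that contains TIMP2. ADAMTS proteases carry thrombospondin repeats that hold them in the matrix. A branch of them cleaves versican and aggrecan, another removes the amino-terminal propeptide of fibrillar procollagens, and others bind fibrillin microfibrils or cleave cartilage oligomeric matrix protein or von Willebrand factor. TIMPs bind the active site of MMPs, and TIMP3, which is held in the matrix, also inhibits several ADAMTS enzymes. In the ovary ADAMTS1 is known for the cleavage of versican around ovulation, and the worm relative of ADAMTS9 and ADAMTS20 is required for the gonad to take its shape.

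Library totals ran from 23940837 to 51912815 counts with a median of 41420455. Levels are CPM, counts divided by library size, with the sizes scaled by the trimmed mean of M-values. A number of 3 counts in a library, the floor below which no fold is given, came to between 0.0564 and 0.129 CPM. FOXL2 itself did not pass 0.388 CPM on day 4 or in CTRL and lay between 147 and 577 CPM in IND. The summed coelomic epithelial markers GATA4, LHX9, UPK3B, WT1 and KRT19 stood at 1056 to 1398 CPM on day 4. On day 14 they stood at 831 to 1107 CPM in CTRL and 602 to 681 CPM in IND. On day 4 LHX9 was at 0, and 2 of the 5 genes had a mean under 0.1 CPM. In CTRL from day 8 on none of the list did, so the sum does not give the course of each marker. The pluripotency genes POU5F1, NANOG, LIN28A and TDGF1 summed to 1803 to 2001 CPM on day 4 and to 85.6 to 116 CPM in day 14 CTRL. The paper names heterogeneity of the cells as a limitation. The neural crest and glial markers SOX10 and FOXD3 summed to 98.8 to 185 CPM in day 14 CTRL. The macrophage markers CD68, CSF1R and PTPRC did not pass 4.01 CPM in any library. In such bulk samples, fewer cells of a type and less RNA per cell cannot be told apart. Some libraries stood apart from their group. Replicate 2 of day 10 IND held 84.4% of the sum of squares of the second principal component and 1817 CPM of the pluripotency genes against 279 CPM in the lowest library of its group. Replicate 1 of day 12 IND was the highest or lowest of its group for many members. Between replicates, the chi-squared statistic per gene was 123 and 95.0 for the pairs with replicate 1 of day 12 IND and 17.7 for the pair without it. It was likewise 71.4 and 128 for the pairs with replicate 3 of day 4 and 17.4 for the pair without it. Results of days 10 and 12 are therefore also given without the IND libraries named, and the counts against day 4 without its replicate 3, a choice made after seeing the data.

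Of the 46 members, 36 reached a mean of at least 1 CPM in at least 1 group. The other 10 were MMPs and TIMP4. Among them MMP3, MMP7, MMP8, MMP13, MMP21, MMP26 and TIMP4 passed 3 counts in at least 1 library but stayed below a group mean of 1 CPM, and MMP12, MMP20 and MMP27 were at the floor in every library. MMP13, the collagenase of cartilage and bone, was over the floor in 1 library, the aberrant replicate 2 of day 10 IND, at 2.11 CPM. All 19 ADAMTS genes were measured at 1 CPM or more.

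**Figure D1:**
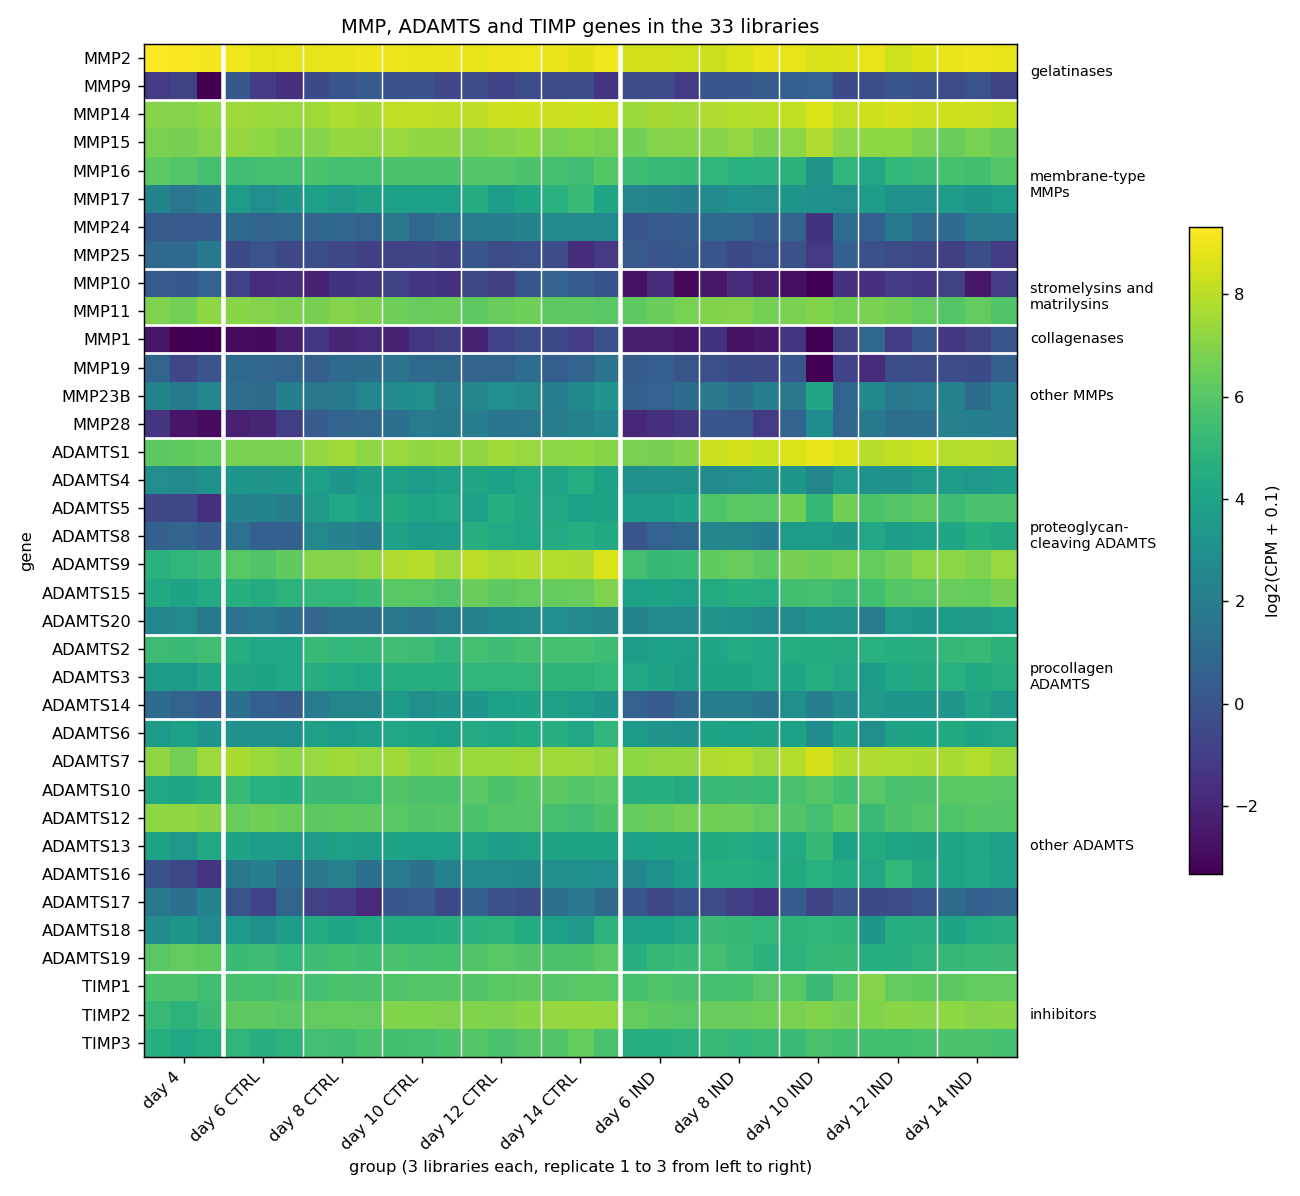
Heat map of the 36 members that reached a mean of at least 1 CPM in a group, as log2(CPM + 0.1) in each of the 33 libraries, ordered by day and condition. MMP2 is among the brightest rows in every library, and ADAMTS5 goes from near the bottom of the scale on day 4 to bright cells in IND on days 8 to 14.

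To compare levels between genes, the deposited FPKM were used, which scale fragments by gene length and library total. MMP2, the gelatinase that cleaves denatured collagen and type IV collagen, ranked first of all members in every group, with 120.0 ± 6.90 FPKM (mean ± SD, n = 3) on day 4, 98.7 ± 10.1 FPKM in day 14 CTRL and 99.5 ± 2.47 FPKM in day 14 IND. On day 4 it was followed by TIMP1 at 32.3 ± 3.73 FPKM, the collagenolytic membrane-type MMP14 at 29.3 ± 2.08 FPKM, MMP15 at 25.4 ± 2.27 FPKM and the stromelysin MMP11 at 23.2 ± 4.10 FPKM. Neighbours in this order lay within their standard deviations of each other, so the order is not set among them, whereas TIMP1 and MMP15 did not reach into each other. By day 14 in CTRL the order below MMP2 was MMP14 at 70.7 ± 2.39 FPKM, TIMP1 at 42.0 ± 0.844 FPKM, TIMP2 at 28.1 ± 0.0830 FPKM and ADAMTS9 at 26.7 ± 9.11 FPKM. ADAMTS1 was next after MMP2 and MMP14 in IND on day 8 at 45.5 ± 3.83 FPKM and on day 10 at 60.7 ± 7.61 FPKM, against 22.3 ± 2.87 and 22.4 ± 1.25 FPKM in CTRL. The other gelatinase, MMP9, was near the bottom of the measured members, at 0.238 ± 0.0995 FPKM in day 14 CTRL. Of its exon bases, 18.4% are shared with the antisense gene SLC12A5-AS1, whose reads these libraries without strand information cannot separate from it.

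Of the 9 MMPs that stayed below a group mean of 1 CPM, 7 lie together with MMP1 and MMP10, while MMP21 on chromosome 10 and MMP26 lie elsewhere. MMP7, MMP20, MMP27, MMP8, MMP10, MMP1, MMP3, MMP12 and MMP13 lie in this order between 102520508 and 102955734 on chromosome 11 (GRCh38), a stretch of 435.2 kb, and the highest group mean of any of the 9 was 1.21 CPM, that of MMP10 on day 4. RefSeq promoter windows, the 250 bases before the start of the gene in GRCh38.p14, were at hand for 27 of the 46 members. Both strands of each were searched for 4 motifs, the GC box, the TATA box, the AP-1 site and the forkhead site. The GC box, read as the letters GGGCGG, was found in 18 of the 20 windows of members that reached 1 CPM and in 1 of the 7 of members that did not, with 42.3% among all 27305 windows of this length. The TATA box, searched as TATAAA, was found in 2 of 20 and 5 of 7, with 11.1% among all windows. The AP-1 site, searched as TGANTCA, was present in ADAMTS12, MMP7, MMP10 and MMP20 and in 6.60% of all windows. The forkhead site, searched as TGTTTAC, was present in ADAMTS13 and MMP27 and in 2.98% of all windows. These matches describe letters only. The windows of MMP10 and MMP7, from the quiet cluster, are shown beside those of MMP14, a strongly expressed member that rose along the differentiation, ADAMTS20, which was higher in IND, and ADAMTS2 and TIMP3, which were lower. Each runs 5′ to 3′ on the strand of its gene and ends at the base before the start, with matches to the 4 motifs in capitals.
MMP10 (chr11:102780629-102780878, minus strand, GRCh38.p14): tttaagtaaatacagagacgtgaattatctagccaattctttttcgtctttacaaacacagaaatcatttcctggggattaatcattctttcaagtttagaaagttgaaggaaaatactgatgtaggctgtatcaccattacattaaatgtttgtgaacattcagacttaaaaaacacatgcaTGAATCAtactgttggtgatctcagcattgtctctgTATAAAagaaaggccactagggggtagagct
MMP7 (chr11:102530748-102530997, minus strand, GRCh38.p14): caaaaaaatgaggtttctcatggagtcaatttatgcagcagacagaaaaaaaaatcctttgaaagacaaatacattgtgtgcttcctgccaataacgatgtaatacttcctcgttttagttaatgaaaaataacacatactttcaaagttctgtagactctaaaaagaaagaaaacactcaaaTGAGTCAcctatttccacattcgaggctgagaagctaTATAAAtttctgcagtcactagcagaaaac
MMP14 (chr14:22836335-22836584, plus strand, GRCh38.p14): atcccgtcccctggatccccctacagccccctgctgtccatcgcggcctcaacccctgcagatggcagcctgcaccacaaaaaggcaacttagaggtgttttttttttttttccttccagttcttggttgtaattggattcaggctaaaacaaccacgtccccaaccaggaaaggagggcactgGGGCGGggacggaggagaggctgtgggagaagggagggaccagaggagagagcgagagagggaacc
ADAMTS20 (chr12:43552204-43552453, minus strand, GRCh38.p14): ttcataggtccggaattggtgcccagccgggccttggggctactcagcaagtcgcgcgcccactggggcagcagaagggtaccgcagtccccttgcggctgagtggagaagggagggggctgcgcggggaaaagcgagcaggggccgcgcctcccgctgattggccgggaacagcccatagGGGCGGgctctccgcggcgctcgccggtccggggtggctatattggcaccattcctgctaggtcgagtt
ADAMTS2 (chr5:179345462-179345711, minus strand, GRCh38.p14): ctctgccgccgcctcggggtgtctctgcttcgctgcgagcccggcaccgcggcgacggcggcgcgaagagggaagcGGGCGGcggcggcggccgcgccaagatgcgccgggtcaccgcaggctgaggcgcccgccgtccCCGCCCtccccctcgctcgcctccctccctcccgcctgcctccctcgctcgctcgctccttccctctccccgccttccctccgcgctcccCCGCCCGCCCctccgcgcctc
TIMP3 (chr22:32801455-32801704, plus strand, GRCh38.p14): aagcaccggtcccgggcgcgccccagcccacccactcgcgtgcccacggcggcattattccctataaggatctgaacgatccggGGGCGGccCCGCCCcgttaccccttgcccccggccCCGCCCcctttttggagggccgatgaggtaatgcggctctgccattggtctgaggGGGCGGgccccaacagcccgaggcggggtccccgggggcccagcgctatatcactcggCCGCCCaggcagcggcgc
In MMP10 the AP-1 letters begin 67 and the TATA box 31 bases before the start, and in MMP7 67 and 30 bases. The GC content of these windows is 34.4% in MMP10 and 33.6% in MMP7, against 56.8% in MMP14, 68.0% in ADAMTS20, 80.0% in ADAMTS2 and 72.4% in TIMP3. The RefSeq starts of ADAMTS20 and ADAMTS2 lie upstream of the starts used for counting. Those of MMP14, MMP7 and TIMP3 lie inside the counted gene, and only that of MMP10 is the same.

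The first comparison asked what differentiation alone did to these genes, by setting CTRL of each later day against day 4 (edgeR quasi-likelihood test, Benjamini-Hochberg adjustment over all genes tested, threshold 0.05). Members were called higher more often than lower on each day, and more of them from day 8 on than on day 6. On day 6, 8 of 34 members tested were higher and 7 lower, where 11.0% and 10.6% of all genes were called higher and lower. On day 8, 17 of 35 were higher and 7 lower (all genes 18.1% and 18.9%). On day 10, 20 of 35 were higher and 7 lower (all genes 23.1% and 22.0%). On day 12, 19 of 35 were higher and 5 lower (all genes 24.4% and 23.8%). On day 14, 20 of 36 were higher and 3 lower (all genes 24.6% and 22.9%). The share of members called higher lay above that of all genes on each day, at 23.5% on day 6 and between 48.6% and 57.1% from day 8 on. The share called lower lay above that of all genes on day 6, at 20.6%, and near it on days 8 and 10. Later it lay below that of all genes, at 14.3% of the members on day 12 and 8.33% on day 14. Without replicate 3 of day 4, which stood apart, 12 members were higher and 10 lower on day 6, 18 and 8 on day 8, 21 and 9 on day 10, 24 and 6 on day 12, and 21 and 4 on day 14. The calls over all genes, higher and lower together, rose as well without it. They went from 3963 to 5673 on day 6, from 6946 to 8722 on day 8 and from 8613 to 10479 on day 10. On day 12 they went from 9279 to 10805 and on day 14 from 8886 to 9865. The median log2 fold change of the members tested was 0.33, 0.60, 0.89, 1.15 and 1.05 on the 5 days, while that of all genes tested lay between -0.01 and 0.00. All 5 comparisons share the day 4 libraries and are not independent of each other.

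Log2 fold changes are given ± SE, derived as the absolute log2 fold change divided by the square root of the F statistic of the test. Of the versican- and aggrecan-cleaving ADAMTS, 6 of 7 were called higher on each of days 8, 10, 12 and 14 with a median log2 fold change of 2.33 on day 14. ADAMTS9 was at 26.9, 30.9 and 37.2 CPM on day 4 and at 230.3, 224 and 392 CPM in day 14 CTRL, a log2 fold change of 3.16 ± 0.24 (adjusted p = 8.69e-06). It rose on every day, with replicate 3 of day 14 CTRL far above the other two. ADAMTS5, an aggrecanase, was close to silent on day 4 at 0.582, 0.554 and 0.226 CPM. It stood at 4.68, 5.16 and 3.94 CPM on day 6 and at 15.2, 24.2 and 19.9 CPM on day 12 (log2 fold change 5.45 ± 0.33, adjusted p = 8.29e-06), a 43.5-fold difference of the means. ADAMTS1 went from 69.7, 73.9 and 80.3 CPM to 149.6, 183 and 165 CPM on day 12, and its log2 fold change was 1.15 ± 0.10 (adjusted p = 4.25e-05). ADAMTS8 rose from 1.38, 1.66 and 1.2 CPM to 20.7, 23.5 and 20.6 CPM on day 14 (log2 fold change 3.94 ± 0.20, adjusted p = 1.38e-06). ADAMTS15 rose from 19.7, 15.4 and 20.7 CPM to 78.9, 83.0 and 118 CPM (2.33 ± 0.19, adjusted p = 1.21e-05). ADAMTS4, the other classical aggrecanase, rose less, from 7.27, 6.34 and 8.86 CPM to 16.7, 22.5 and 14.3 CPM (1.26 ± 0.22, adjusted p = 0.00113). Its day 8 call was lost without day 4 replicate 1 or CTRL replicate 1 or 3 (adjusted p between 0.0608 and 0.0825). ADAMTS20 was the exception of this group. It fell by day 8, from 5.52, 6.13 and 3.36 to 1.73, 2.45 and 2.17 CPM (log2 fold change -1.24 ± 0.28, adjusted p = 0.00879). It was at 7.27, 5.97 and 5.32 CPM on day 14, where it did not pass the test (adjusted p = 0.369).

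Among the 3 procollagen N-propeptidases, ADAMTS14 rose from 2.14, 1.56 and 1.16 CPM on day 4 to 14.9, 12.0 and 9.79 CPM on day 14 (log2 fold change 2.92 ± 0.28, adjusted p = 3.75e-05). ADAMTS3 rose from 11.7, 11.9 and 16.8 to 29.8, 29.7 and 32.4 CPM (1.19 ± 0.17, adjusted p = 3.30e-04). ADAMTS2 instead dipped, from 40.0, 37.4 and 43.8 CPM to 23.0, 19.0 and 18.5 CPM on day 6 (log2 fold change -1.0 ± 0.14, adjusted p = 5.80e-04). It was back at 36.7, 33.2 and 34.4 CPM on day 8, where the difference did not pass the test (adjusted p = 0.133). Among the remaining ADAMTS, ADAMTS16, which cleaves fibronectin, rose from 0.80, 0.554 and 0.291 CPM to 7.35, 7.97 and 7.19 CPM on day 14 (log2 fold change 3.78 ± 0.35, adjusted p = 2.65e-05). ADAMTS10, a partner of fibrillin microfibrils, rose from 18.4, 17.4 and 22.1 to 68.7, 59.9 and 66.5 CPM (1.76 ± 0.13, adjusted p = 7.37e-06). ADAMTS12 fell on every day, from 144, 151 and 132 CPM to 47.9, 43.5 and 54.3 CPM on day 14 (log2 fold change -1.55 ± 0.12, adjusted p = 9.74e-06). ADAMTS19 fell to 38.5, 41.9 and 32.7 CPM on day 6 from 68.3, 77.3 and 72.7 CPM on day 4 (log2 fold change -0.95 ± 0.13, adjusted p = 5.16e-04). ADAMTS17, the close relative of ADAMTS19, was lower from day 6 to day 12, with a day 6 call lost without CTRL replicate 1 (adjusted p = 0.0785). It was at 0.444, 0.361 and 0.187 CPM on day 8 against 3.27, 2.36 and 5.11 CPM on day 4 (-3.41 ± 0.43, adjusted p = 3.95e-04). ADAMTS7 and ADAMTS13, which cleaves von Willebrand factor, passed the test on no day. ADAMTS7 has near-identical pseudogene copies and its counts are uncertain for that reason.

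Among the membrane-type MMPs, MMP14 rose on all 5 days, from 128, 125 and 143 CPM on day 4 to 271, 274 and 264 CPM on day 10 and 315, 303 and 321 CPM on day 14 (log2 fold change 1.25 ± 0.10, adjusted p = 1.39e-05). The day 6 call of MMP14, 0.36 ± 0.11 (adjusted p = 0.0422), was lost without day 4 replicate 1 or 2 or CTRL replicate 1, 2 or 3 (adjusted p between 0.0886 and 0.178). MMP17, which is held by a lipid anchor, rose from 5.12, 3.01 and 4.33 to 25.8, 38.1 and 17.0 CPM (2.70 ± 0.32, adjusted p = 1.19e-04). MMP24 rose from 1.09, 1.11 and 1.13 to 6.79, 6.07 and 6.82 CPM (2.56 ± 0.23, adjusted p = 2.44e-05). Of its exon bases, 18.1% are shared with the opposite gene MMP24OS. MMP25, the other lipid-anchored member, was lower on all 5 days, at 1.89, 1.87 and 3.39 CPM on day 4 and 0.695, 0.211 and 0.325 CPM on day 14 (-2.48 ± 0.49, adjusted p = 0.00255). Of its exon bases, 35.2% lie under MMP25-AS1. MMP16 was called on no day. MMP2 itself changed little. It was at 635, 587 and 570.3 CPM on day 4 and 454, 488 and 508 CPM in day 8 CTRL, a log2 fold change of -0.30 ± 0.10 (adjusted p = 0.0343). This call was lost without day 4 replicate 1 or CTRL replicate 1, 2 or 3 (adjusted p between 0.0835 and 0.148). The day 10 call of MMP2 was lost without day 4 replicate 1 or 2 or CTRL replicate 1, 2 or 3 (adjusted p between 0.0675 and 0.196). MMP28, a secreted MMP of epithelia, rose from 0.291, 0.0693 and 0.0323 CPM to 3.82, 4.60 and 5.64 CPM on day 14 (log2 fold change 5.16 ± 0.55, adjusted p = 6.92e-05), with day 4 replicates 2 and 3 at or below the floor of 3 counts. MMP11 fell from day 10 on, with a day 10 call lost without CTRL replicate 2 or 3 (adjusted p between 0.0520 and 0.0670). It stood at 71.1, 73.1 and 67.6 CPM on day 14 against 115, 103 and 146 CPM on day 4 (-0.77 ± 0.13, adjusted p = 0.00116).

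Calls on fewer days or at low levels were made for 6 other members. MMP1, the interstitial collagenase, was at or below the floor in all day 4 libraries and at 0.588, 0.386 and 0.771 CPM on day 14 (adjusted p = 0.00387). ADAMTS18 was higher on days 8 to 14, with the day 14 call lost without day 4 replicate 1 (adjusted p = 0.0548). ADAMTS6 was higher on days 10 to 14, with the day 10 call lost without day 4 replicate 1 or CTRL replicate 1, 2 or 3 (adjusted p between 0.0544 and 0.156). MMP15 was higher on days 8 and 10 (0.44 ± 0.10 on day 10), with the day 8 call lost without day 4 replicate 1 or 2 or CTRL replicate 2 or 3 (adjusted p between 0.0875 and 0.172). MMP19 was higher on day 10, a call lost without day 4 replicate 2 or CTRL replicate 1, 2 or 3 (adjusted p between 0.0737 and 0.164). MMP10, a stromelysin, was lower on days 6, 8 and 10, at 0.133, 0.265 and 0.294 CPM on day 8 against 1.16, 1.00 and 1.45 CPM on day 4. Its day 6 call was lost without CTRL replicate 2 or 3 (adjusted p between 0.0666 and 0.0683), and it was at 1.47, 1.23 and 0.812 CPM on day 14. MMP9 and MMP23B passed on no day, and MMP23B has the near-identical copy MMP23A with which its reads may be shared.

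All 3 inhibitors that could be tested rose. TIMP2 was higher on all 5 days and went from 36.7, 28.8 and 39.6 CPM on day 4 to 71.1, 73.1 and 67.8 CPM on day 6 and 157, 158 and 156 CPM on day 14. There the log2 fold change was 2.17 ± 0.13 (adjusted p = 3.14e-06) and the means differed 4.48-fold. TIMP3 was called higher from day 8 on and stood at 59.3, 80.0 and 51.9 CPM on day 14 against 24.0, 19.7 and 22.9 CPM on day 4 (1.53 ± 0.17, adjusted p = 9.81e-05). TIMP1 was called on days 12 and 14 only, with a smaller difference, 0.36 ± 0.12 (adjusted p = 0.0302) on day 14, and 63.0, 64.3 and 65.4 CPM against 52.4, 54.5 and 43.9 CPM. Its calls were lost without day 4 replicate 1 or CTRL replicate 2 or 3 (adjusted p between 0.0531 and 0.119) on day 12. On day 14 the call was lost without day 4 replicate 1 or CTRL replicate 1, 2 or 3 (adjusted p between 0.0613 and 0.0820). TIMP4 was too low to test, with a highest group mean of 0.258 CPM, and it shares 10.3% of its exon bases with SYN2, the gene in which it lies.

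The second comparison asked what induction did, by setting IND against CTRL on each day. The change was divided among the members. A small set of ADAMTS proteases was higher in IND, led by ADAMTS16, ADAMTS5, ADAMTS20 and ADAMTS1, and another set, with ADAMTS9, ADAMTS2, MMP17, ADAMTS15 and ADAMTS19, was lower. Higher and lower calls numbered 3 of 34 and 5 on day 6 (all genes 1.29% and 2.37%) and 8 of 34 and 8 on day 8 (all genes 7.49% and 6.67%). They numbered 3 of 36 and 2 on day 10 (all genes 0.856% and 1.18%), 3 of 36 and 5 on day 12 (all genes 2.38% and 3.04%) and 5 of 36 and 7 on day 14 (all genes 3.21% and 5.22%). On each day a larger share of the members than of all genes was called, between 8.33% and 23.5% higher and between 5.56% and 23.5% lower. The median log2 fold change of the members was -0.16, 0.01, -0.08, -0.33 and -0.07, against -0.01 to 0.02 for all genes tested. Over the 5 days, with all libraries, 21 members were called at least once, 8 of them only higher and 13 only lower. The 19 ADAMTS genes, all tested on each day, gave 3 higher and 3 lower calls on day 6, 7 and 4 on day 8, 3 and 2 on day 10, 3 and 5 on day 12, and 5 and 4 on day 14. MMPs were called higher once, MMP14 on day 8, and lower 2 times on day 6, 3 times on day 8 and 3 times on day 14. On days 10 and 12 no MMP was called by edgeR with all libraries, where 3 and 6 of the 14 tested had an unadjusted p under 0.05. DESeq2 called 2 MMPs lower on day 10 and 3 on day 12, and limma on log2(FPKM + 1) called 0 and 1, with none higher by either tool.

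The counts on days 10 and 12 rested on the libraries that stood apart. Without replicate 2 of day 10 IND, 8 members were higher and 10 lower (all genes 8.74% and 9.51%). Without replicate 1 of day 12 IND, 5 were higher and 13 lower (all genes 4.16% and 5.49%). Among the MMPs, MMP16, MMP17, MMP19 and MMP28 were then lower and MMP11 and MMP25 higher on day 10. MMP2, MMP16, MMP17, MMP19 and MMP23B were lower on day 12. Other single libraries also moved a count by more than 1.5 times. On day 6 the 8 calls became 5 without CTRL replicate 1 or without IND replicate 2. Over all genes the 700 calls became 402 and 348 in these fits. On day 8 the count moved less, from 16 calls to 18 without IND replicate 3, with 8 higher and 10 lower. The 2752 calls of all genes became 4732 in that fit. On day 10 the 5 calls became 0 without CTRL replicate 1 or 2 (13 and 11 members kept an unadjusted p under 0.05 by edgeR). They became 1 without CTRL replicate 3 and 2 without IND replicate 1 or 3, which left the aberrant library in the fit. Calls over all genes fell from 404 to 12, 11 and 52 without CTRL replicates 1, 2 and 3. Without IND replicates 1 and 3 they fell to 72 and 55. On day 12 the 8 calls became 4 without CTRL replicate 1 or 3, and the 1080 of all genes became 508 and 417. On day 14 the 12 calls became 6 without CTRL replicate 1 or IND replicate 3 and 7 without IND replicate 2. The 1606 calls of all genes became 1077, 905 and 1145 in these fits. With all libraries DESeq2 called 12 members on day 10 and limma 3 (all genes 1787 and 390).

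**Figure D2:**
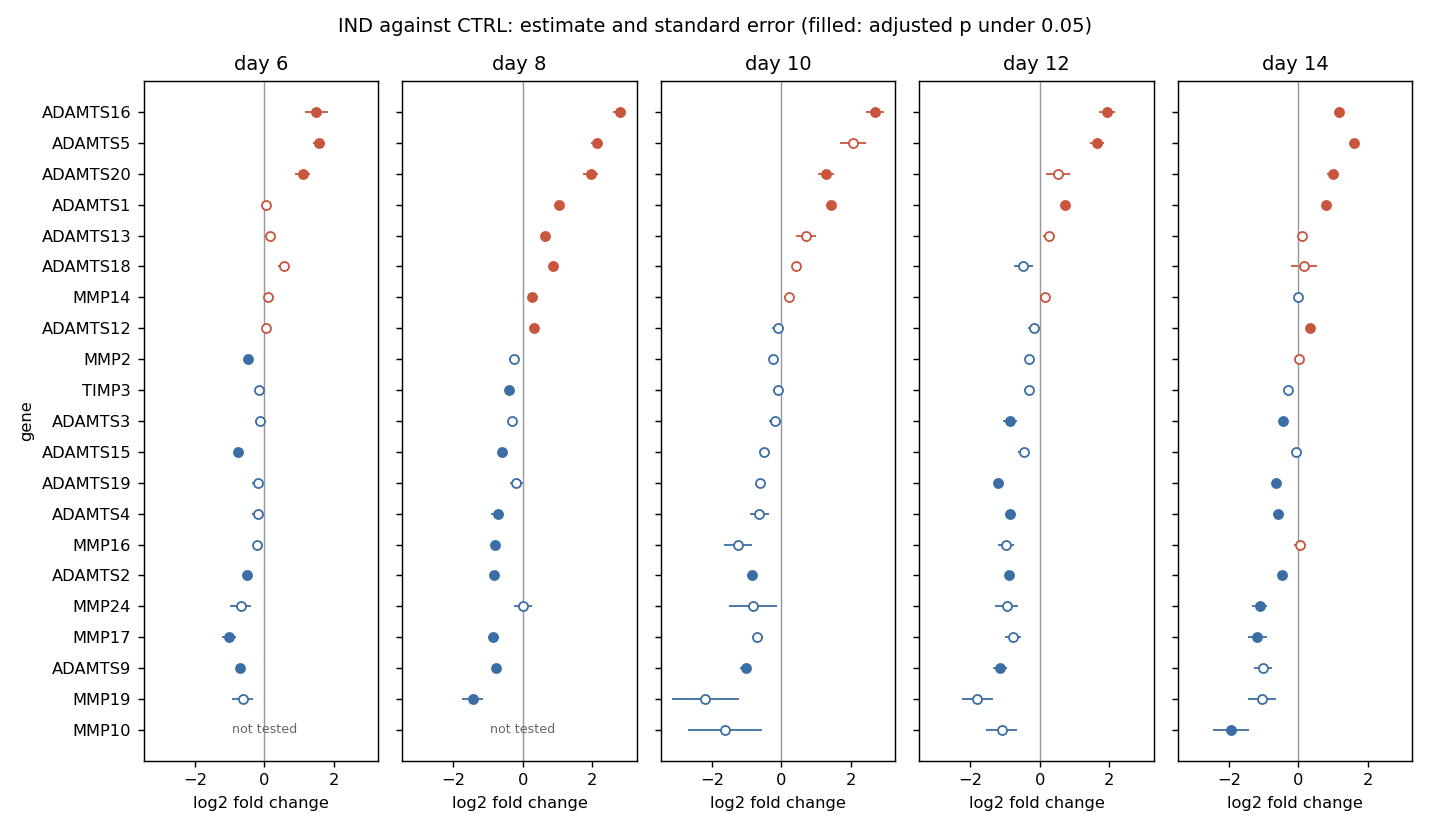
Log2 fold change of IND against CTRL (± SE derived from the F statistic of the edgeR test, 3 libraries a group) on each of the 5 days for the 21 members called at least once. Filled points passed the adjusted p threshold of 0.05. ADAMTS16 and ADAMTS5 lie above 1 on every day, and MMP10 was not tested on days 6 and 8.

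ADAMTS16 on day 8 had the largest log2 fold change among the members called. Its level was 3.33, 4.45 and 2.43 CPM in CTRL and 24.9, 24.3 and 21.4 CPM in IND on day 8, and 3.49, 2.40 and 4.45 against 20.3, 25.5 and 21.8 CPM on day 10. No IND library overlapped CTRL on any day, and on day 8 the means differed 6.91-fold, with a log2 fold change of 2.80 ± 0.19 (adjusted p = 1.01e-05). It was called on all 5 days, with log2 fold changes of 1.5 ± 0.33 on day 6, 2.71 ± 0.26 on day 10, 1.94 ± 0.23 on day 12 and 1.18 ± 0.15 on day 14. The day 6 call was lost without CTRL replicate 1 or 3 or IND replicate 2 (adjusted p between 0.0801 and 0.212), and the day 10 call without CTRL replicate 1 or 2 (adjusted p between 0.05001 and 0.0950). Without the aberrant IND replicate 2 the day 10 difference was 2.60 ± 0.20 (adjusted p = 8.76e-06). On day 14, where the difference was smaller, CTRL stood above its level of day 8, at 7.35, 7.97 and 7.19 CPM. IND stood below its level of day 8, at 16.3, 19.7 and 15.0 CPM. The steps from day 8 to day 14 were not tested.

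ADAMTS5, the aggrecanase whose level rose in CTRL as well, was at 4.68, 5.16 and 3.94 CPM in CTRL and 12.7, 12.1 and 15.8 CPM in IND on day 6. On day 8 it was at 11.8, 19.0 and 13.8 CPM in CTRL and 57.3, 67.7 and 68.6 CPM in IND. Every IND library lay above every CTRL library of its day. The log2 fold changes were 1.58 ± 0.18 (adjusted p = 5.92e-05) on day 6 and 2.13 ± 0.16 (adjusted p = 9.32e-05) on day 8, a 4.35-fold difference of the means. On day 10 the IND libraries were at 99.5, 35.7 and 96.3 CPM, and the low value belonged to replicate 2. The difference of 2.06 ± 0.38 (adjusted p = 0.0542) did not pass the test with it and came to 2.40 ± 0.08 (adjusted p = 1.29e-09) without it. On days 12 and 14 it was 1.65 ± 0.19 and 1.61 ± 0.13. ADAMTS1, its neighbour on chromosome 21 with 72502 bases between the genes, did not differ detectably on day 6, at 111, 107 and 108 CPM in CTRL and 110.2, 107 and 119 CPM in IND (log2 fold change 0.06 ± 0.09, adjusted p = 0.840). It then rose to 312, 353 and 303 CPM in IND against 152, 182 and 142 CPM in CTRL on day 8 (log2 fold change 1.03 ± 0.10, adjusted p = 7.71e-05). On day 10 it was at 406, 487 and 393 against 167, 150.0 and 156 CPM (1.45 ± 0.13, adjusted p = 0.00673). The day 10 call was lost without CTRL replicate 1, 2 or 3 (adjusted p between 0.0516 and 0.0701), and without the aberrant IND replicate 2 it was 1.34 ± 0.07 (adjusted p = 4.29e-08). On day 12 the difference was 0.73 ± 0.13 (adjusted p = 0.0129), a call lost without CTRL replicate 1 or 3 (adjusted p between 0.0697 and 0.0751). Without IND replicate 1 the day 12 difference was 0.80 ± 0.09 (adjusted p = 7.19e-04). On day 14 it was 0.79 ± 0.09 (adjusted p = 8.25e-05).

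ADAMTS20 was low in all groups but higher in IND on days 6, 8, 10 and 14. On day 8 it was at 1.73, 2.45 and 2.17 CPM in CTRL and 9.37, 8.70 and 6.45 CPM in IND (log2 fold change 1.96 ± 0.21, adjusted p = 1.46e-04). The day 14 levels were 7.27, 5.97 and 5.32 CPM in CTRL and 11.7, 11.2 and 13.9 CPM in IND (0.99 ± 0.17, adjusted p = 0.00206). On day 8 the IND libraries lay above and the CTRL libraries below those of day 4, at 5.52, 6.13 and 3.36 CPM, of which only the fall in CTRL was tested. The day 10 call, 1.30 ± 0.23 (adjusted p = 0.0432), was lost without CTRL replicate 1, 2 or 3 or IND replicate 1 or 3 (adjusted p between 0.0984 and 0.259). On day 12 the difference of 0.53 ± 0.35 (adjusted p = 0.426) did not pass the test, with IND at 3.71, 10.5 and 10.2 CPM. Without IND replicate 1 it came to 0.88 ± 0.15 (adjusted p = 0.00598).

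The other 4 members that were called higher showed smaller differences. ADAMTS18, known from eye development, was at 21.2, 17.2 and 21.5 CPM in CTRL and 39.3, 35.7 and 33 CPM in IND on day 8 (log2 fold change 0.86 ± 0.11, adjusted p = 5.04e-04). ADAMTS13 was at 12.0, 14.4 and 13.0 CPM in CTRL and 20.6, 21.6 and 19.0 CPM in IND (0.65 ± 0.11, adjusted p = 0.00282). With all libraries both were called on that day alone, without overlap. Without IND replicate 2, ADAMTS18 was also higher on day 10, with 0.40 ± 0.09 (adjusted p = 0.00501). ADAMTS12, which fell in CTRL, was higher in IND on day 8 at 96.0, 92.2 and 78.7 against 70.9, 74.0 and 71.9 CPM (0.31 ± 0.08, adjusted p = 0.0309). The day 14 levels were 57.5, 63.5 and 62.8 CPM in IND against 47.9, 43.5 and 54.3 CPM in CTRL (0.34 ± 0.10, adjusted p = 0.0483). The calls of ADAMTS12 were lost without CTRL replicate 1, 2 or 3 or IND replicate 1 or 2 (adjusted p between 0.0528 and 0.135) on day 8. On day 14 the call was lost without CTRL replicate 1 or 2 or IND replicate 1, 2 or 3 (adjusted p between 0.0753 and 0.153). MMP14 was at 182, 219 and 198 CPM in CTRL and 223, 241 and 249 CPM in IND on day 8, and its log2 fold change was 0.26 ± 0.08 (adjusted p = 0.0485). This call was lost without CTRL replicate 1 or 3 or IND replicate 1, 2 or 3 (adjusted p between 0.0629 and 0.227). On day 14 MMP14 was at 315, 303 and 321 CPM in CTRL and 325, 319.7 and 289 CPM in IND (adjusted p = 0.989).

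The neural crest and glial markers, like those of other cell types, differed between IND and CTRL on days with both higher and lower members. The sum of SOX10 and FOXD3 was 37.8 to 64.9 CPM in CTRL and 18.4 to 28.2 CPM in IND on day 6. The ranges were 60.1 to 100.3 and 38.0 to 40.2 CPM on day 8 and 80.1 to 94.9 and 45.9 to 67.2 CPM on day 10. They were 87.2 to 132 and 47.1 to 65.9 CPM on day 12 and 98.8 to 185 and 64.0 to 74.3 CPM on day 14. The groups did not overlap on any day, and neither marker was at 0 in any group. Other marker lists moved as well. The neuronal genes STMN2, NEUROD1, ELAVL4 and DCX summed to 93.9 to 138 CPM in CTRL and 58.0 to 67.5 CPM in IND on day 8, and to 342 to 594 and 272 to 333 CPM on day 14. They were lower in IND without overlap on days 8 to 14. The heart and striated muscle genes TNNT2, MYH6, ACTN2 and MYOG, at 62.2 to 71.2 and 35.0 to 38.2 CPM on day 8, were lower without overlap on days 6, 8 and 10. The endothelial genes PECAM1, CDH5, KDR and TEK lay at 120.5 to 144 and 101 to 108 CPM on day 6 and at 123 to 130 and 146 to 160.3 CPM on day 8, so that they were lower on the first and higher on the second of these days. The coelomic epithelial sum was lower in IND without overlap on days 6 and 14, and the pluripotency sum higher on days 10 and 12. The part of these cell types in the levels of the proteases was not tested.

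ADAMTS9, the versican-cleaving protease that rose most in CTRL by CPM, reached lower levels in IND. It was at 64.8, 59.5 and 73.7 CPM in CTRL and 47.0, 35.6 and 38.8 CPM in IND on day 6 (log2 fold change -0.69 ± 0.12, adjusted p = 0.00270). On day 8 it was at 123, 127 and 149 CPM in CTRL and 75.6, 83.8 and 70.7 CPM in IND (-0.78 ± 0.09, adjusted p = 2.96e-04). The levels of day 12 were 259.6, 216 and 238 CPM in CTRL and 80.1, 103 and 139 CPM in IND on day 12 (-1.15 ± 0.19, adjusted p = 0.0118). The groups did not overlap on any of the 5 days. On day 10 the difference was -1.03 ± 0.15 (adjusted p = 0.0271), lost without CTRL replicate 1, 2 or 3 or IND replicate 1 or 3 (adjusted p between 0.0603 and 0.190). Without the aberrant IND replicate 2 it was -0.98 ± 0.14 (adjusted p = 0.00251). The day 12 call was lost without CTRL replicate 1 or 3 (adjusted p between 0.0512 and 0.0531). Without IND replicate 1 the day 12 difference was -0.98 ± 0.14 (adjusted p = 0.00904). On day 14 it was -1.02 ± 0.26 (adjusted p = 0.0675) and did not pass the test, with CTRL replicate 3 at 392 CPM beside 230.3 and 224 CPM. The IND means were 40.5 CPM on day 6 and 139 CPM on day 14, a difference that was not tested. ADAMTS15, from the same group of proteases, was lower on days 6 and 8, at 21.1, 24.7 and 22.8 CPM in IND and 33.1, 32.9 and 38.7 CPM in CTRL on day 8 (-0.60 ± 0.10, adjusted p = 0.00233). Without the IND libraries that stood apart it was also lower on day 10, with -0.57 ± 0.08 (adjusted p = 3.45e-04), and on day 12, with -0.32 ± 0.08 (adjusted p = 0.0390). By day 14 it stood at 78.9, 83.0 and 118 CPM in CTRL and 82.9, 80.5 and 105 CPM in IND, and the groups overlapped. ADAMTS4 was called lower on days 8, 12 and 14, with -0.85 ± 0.17 on day 12. All 3 calls were fragile, being lost without CTRL replicate 1 or 3 or IND replicate 1 or 2 (adjusted p between 0.0618 and 0.109) on day 8. The others were lost without CTRL replicate 1, 2 or 3 or IND replicate 2 (adjusted p between 0.0553 and 0.113) on day 12 and without CTRL replicate 1 or 2 or IND replicate 1, 2 or 3 (adjusted p between 0.0953 and 0.176) on day 14. Without IND replicate 2, ADAMTS4 was also lower on day 10, with -0.39 ± 0.12 (adjusted p = 0.0342). Without IND replicate 1, its day 12 difference was -0.77 ± 0.15 (adjusted p = 0.0101).

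The procollagen N-propeptidase ADAMTS2 was the only member called lower on all 5 days. On day 8 it was at 36.7, 33.2 and 34.4 CPM in CTRL and 17.9, 21.6 and 18.5 CPM in IND (log2 fold change -0.83 ± 0.10, adjusted p = 2.60e-04). On day 12 it was at 46.6, 42.0 and 47.6 CPM in CTRL and 25.8, 23.2 and 24.9 CPM in IND (-0.88 ± 0.12, adjusted p = 0.00467). The groups did not overlap on any day. The other calls were weaker. On day 6 it was -0.51 ± 0.13 (adjusted p = 0.0444), lost without any 1 of the 6 libraries (adjusted p between 0.0585 and 0.190). On day 10 it was -0.84 ± 0.15 (adjusted p = 0.0487), lost without CTRL replicate 1, 2 or 3 or IND replicate 1 or 3 (adjusted p between 0.0835 and 0.285). Without the aberrant IND replicate 2 it was -0.83 ± 0.12 (adjusted p = 5.69e-04) on that day. On day 14 it was -0.48 ± 0.11 (adjusted p = 0.0141), lost without CTRL replicate 1 or IND replicate 3 (adjusted p between 0.0676 and 0.0753). ADAMTS3, of the same branch, was at 31.0, 31.7 and 30.7 CPM in CTRL and 11.9, 19.1 and 20.4 CPM in IND on day 12 (-0.86 ± 0.20, adjusted p = 0.0396). The day 14 levels were 29.8, 29.7 and 32.4 CPM in CTRL and 25.5, 20.003 and 22.2 CPM in IND (-0.44 ± 0.11, adjusted p = 0.0283). Its day 12 call was lost without CTRL replicate 1, 2 or 3 or IND replicate 2 (adjusted p between 0.0661 and 0.128). Without IND replicate 1 the day 12 difference was -0.66 ± 0.08 (adjusted p = 0.00148). Without IND replicate 2 of day 10, ADAMTS3 was lower on that day as well, with -0.34 ± 0.10 (adjusted p = 0.0235). The day 14 call was lost without CTRL replicate 1 or 3 or IND replicate 2 or 3 (adjusted p between 0.0614 and 0.128). ADAMTS14 was called on no day between IND and CTRL. ADAMTS19, which has a role in heart valves, was lower late, at 58.7, 65.6 and 58.3 CPM in CTRL and 24.8, 25.2 and 28.7 CPM in IND on day 12 (-1.21 ± 0.12, adjusted p = 0.00155). The day 14 levels were 52.4, 54.3 and 67.6 CPM in CTRL and 34.3, 38.1 and 39.1 CPM in IND (-0.64 ± 0.11, adjusted p = 0.00221). Without IND replicate 2 it was also lower on day 10, with -0.65 ± 0.09 (adjusted p = 2.62e-04). On day 8 the groups overlapped at 42.2, 44.4 and 41.4 CPM in CTRL and 47.0, 37.8 and 27.1 CPM in IND.

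With all libraries, lower calls on at least 1 day were made for 6 MMPs. MMP2 was at 526, 447 and 464 CPM in CTRL and 343, 343 and 341 CPM in IND on day 6 (log2 fold change -0.47 ± 0.10, adjusted p = 0.00900), a call lost without IND replicate 2 (adjusted p = 0.0665). On day 12 it was lower only without IND replicate 1, with -0.39 ± 0.10 (adjusted p = 0.0417). By day 14 the levels were 496, 430.1 and 522 CPM in CTRL and 485, 502 and 479.7 CPM in IND (adjusted p = 0.924). MMP17 was lower on days 6, 8 and 14 with all libraries. Without the libraries that stood apart it was also lower on day 10, with -0.70 ± 0.13 (adjusted p = 0.00178), and on day 12, with -0.99 ± 0.20 (adjusted p = 0.0182). On day 8 it was at 14.6, 11.0 and 15.1 CPM in CTRL and 6.73, 8.27 and 7.49 CPM in IND (-0.85 ± 0.15, adjusted p = 0.00415). On day 14 it was at 25.8, 38.1 and 17.0 CPM in CTRL and 12.8, 10.2 and 12.5 CPM in IND (-1.18 ± 0.27, adjusted p = 0.0396). Its day 6 call was lost without CTRL replicate 1 (adjusted p = 0.0803) and its day 14 call without CTRL replicate 1 or IND replicate 1, 2 or 3 (adjusted p between 0.0938 and 0.134). MMP16, a membrane-type MMP, was at 52.2, 47.5 and 47.7 CPM in CTRL and 30.2, 27.0 and 26.1 CPM in IND on day 8 (-0.81 ± 0.09, adjusted p = 1.54e-04). Its IND libraries of day 10, at 27.6, 9.37 and 30.9 CPM, lay below the 55.5, 53.8 and 53.0 CPM of CTRL without passing the test (log2 fold change -1.25 ± 0.40, adjusted p = 0.210). Without IND replicate 2 the difference came to -0.89 ± 0.08 (adjusted p = 4.56e-06). On day 14 the groups overlapped, at 48.3, 43.6 and 63.7 CPM in CTRL and 50.4, 45.2 and 63.8 CPM in IND. MMP24 was lower on day 14, at 2.07, 3.50 and 3.43 against 6.79, 6.07 and 6.82 CPM (-1.11 ± 0.22, adjusted p = 0.00646). MMP19 was lower on day 8, at 0.745, 0.607 and 0.570 against 1.31, 1.88 and 2.11 CPM (-1.45 ± 0.30, adjusted p = 0.00876). Without IND replicate 2 it was also lower on day 10, with -1.68 ± 0.32 (adjusted p = 0.00257). MMP19 shares 17.4% of its exon bases with TMEM198B on the other strand. MMP10 was at 1.47, 1.23 and 0.812 CPM in CTRL and 0.457, 0.0730 and 0.387 CPM in IND on day 14 (-1.94 ± 0.53, adjusted p = 0.0369). This call was lost without CTRL replicate 1 or 2 or IND replicate 2 or 3 (adjusted p between 0.0850 and 0.163). MMP9 did not pass 1.47 CPM in any library and was called on no day.

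The inhibitors gave a single call between IND and CTRL. TIMP3 was lower on day 8, at 45.8, 43.9 and 51.8 CPM in CTRL and 36.3, 32.9 and 36.7 CPM in IND (log2 fold change -0.41 ± 0.09, adjusted p = 0.0113). The call was lost without CTRL replicate 3 or IND replicate 2 (adjusted p between 0.0577 and 0.0712). TIMP2 was at 157, 158 and 156 CPM in CTRL and 145, 131 and 133 CPM in IND on day 14 (-0.19 ± 0.08, adjusted p = 0.173). TIMP1 was at 63.0, 64.3 and 65.4 CPM in CTRL and 70.8, 77.5 and 78.4 CPM in IND on day 14 (0.24 ± 0.08, adjusted p = 0.0931). The high value in its day 12 IND libraries of 126, 77.3 and 75.3 CPM came from replicate 1, the library that stood apart. TIMP4 was tested on no day. With all libraries, the 16 members that were tested on at least 1 day but called on none were ADAMTS6, ADAMTS7, ADAMTS8, ADAMTS10, ADAMTS14, ADAMTS17, MMP1, MMP9, MMP11, MMP15, MMP23B, MMP25, MMP26, MMP28, TIMP1 and TIMP2. Of these, 7 were called on day 10 or 12 without the IND libraries of these days that stood apart. ADAMTS7 was then higher on day 10, with 0.50 ± 0.09 (adjusted p = 0.00285), and on day 12. MMP11 was higher, with 0.28 ± 0.07 (adjusted p = 0.0120), MMP25 higher, with 1.23 ± 0.37 (adjusted p = 0.0360), and MMP28 lower, with -0.96 ± 0.24 (adjusted p = 0.0137), on day 10. ADAMTS8 was lower, with -0.63 ± 0.14 (adjusted p = 0.0190), MMP23B lower, with -0.90 ± 0.19 (adjusted p = 0.0171), and ADAMTS6 lower, with -0.39 ± 0.11 (adjusted p = 0.0478), on day 12.

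**Figure D3:**
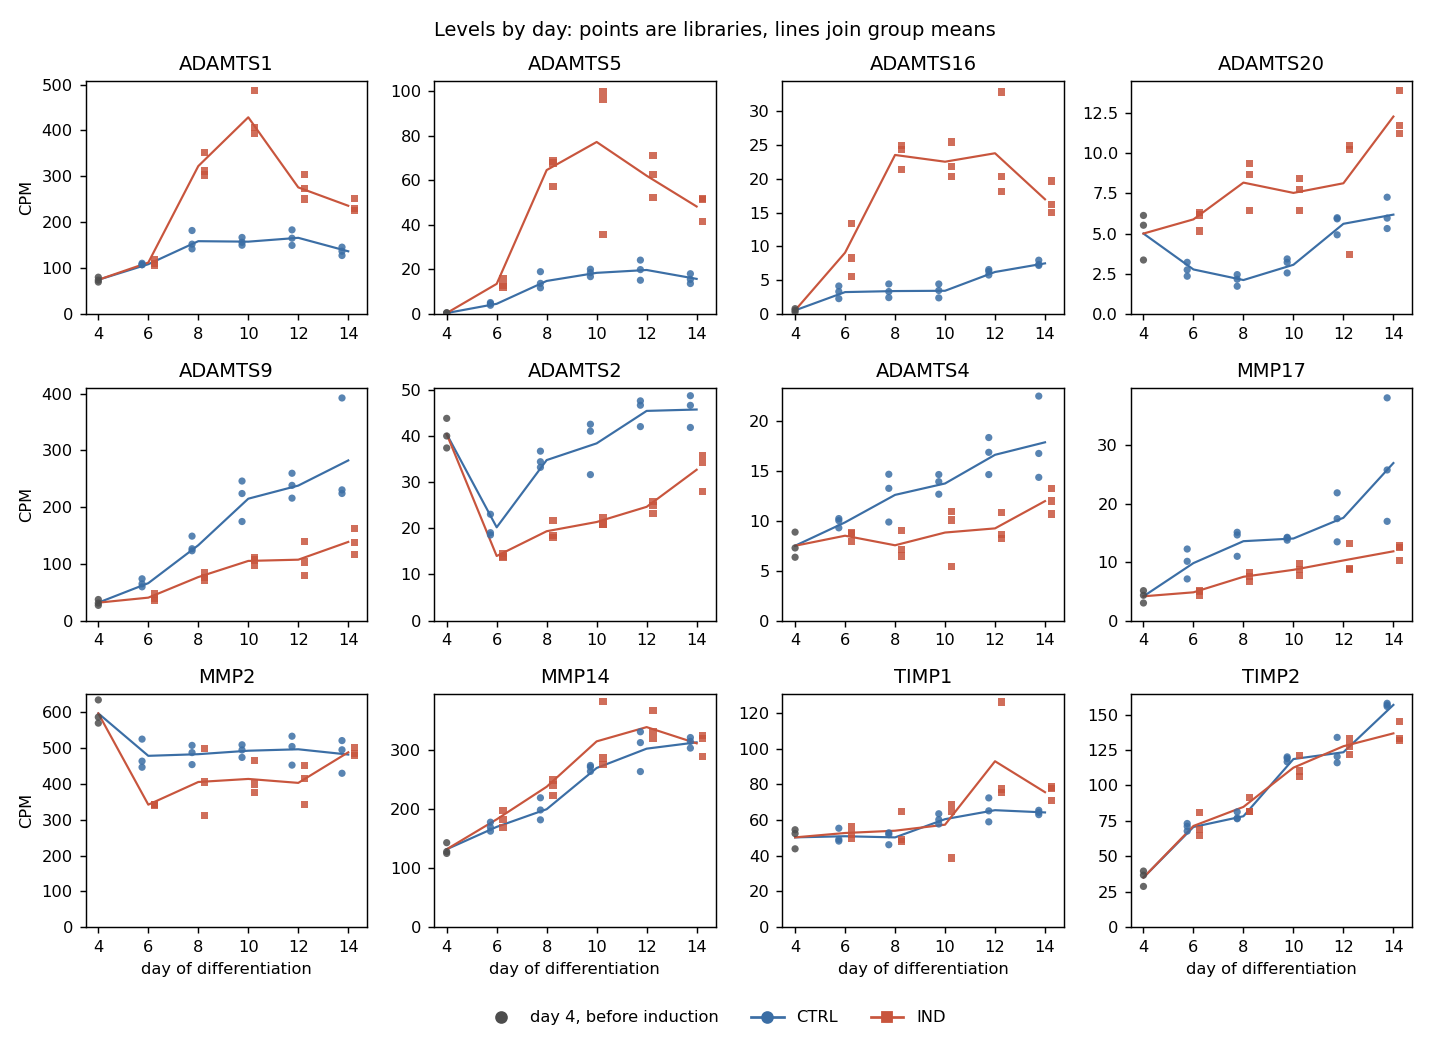
CPM by day for 12 members, with a point for each library and lines through the group means of CTRL and IND from the shared day 4 group. ADAMTS16, ADAMTS5, ADAMTS20 and ADAMTS1 run higher in IND, ADAMTS9, ADAMTS2 and MMP17 lower, and MMP14 and TIMP2 rise along both lines.

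Whether the difference between IND and CTRL changed with the day was tested with 4 interaction terms over the 30 libraries of days 6 to 14. Of 38 members tested, 3 passed, where 2.38% of all genes did. ADAMTS1 (adjusted p = 4.81e-05) went from a log2 fold change of 0.06 ± 0.09 on day 6 to 1.45 ± 0.13 on day 10 and to 0.79 ± 0.09 on day 14. ADAMTS16 (adjusted p = 0.0274) differed most on days 8 and 10. ADAMTS19 (adjusted p = 0.0280) went from -0.18 ± 0.18 on day 8 to -1.21 ± 0.12 on day 12. The call of ADAMTS1 was kept without any 1 of the 30 libraries (adjusted p at most 3.79e-04). That of ADAMTS16 was lost without 11 of them in turn, namely day 6 IND replicate 2, day 8 CTRL replicates 1 and 3 and IND replicates 1 and 2, day 10 CTRL replicates 1 and 2, and day 14 CTRL replicates 1 and 2 and IND replicates 1 and 3 (adjusted p up to 0.0769). That of ADAMTS19 was lost without 10, namely day 6 CTRL replicates 1 and 3 and IND replicate 2, day 8 CTRL replicates 1 and 3 and IND replicate 2, and day 12 CTRL replicates 1 and 2 and IND replicates 1 and 2 (adjusted p up to 0.0750).

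Summed over each family and expressed as a share of the FPKM of all members in a library, MMP transcripts made up 62.7% ± 0.462 (SD, n = 3) on day 4, ADAMTS 24.2% ± 1.25 and TIMP 13.1% ± 1.12. In CTRL the MMP share was 50.03% ± 0.777 and the TIMP share 18.5% ± 1.33 on day 14. On day 8 the ADAMTS share was 28.3% ± 1.04 in CTRL and 35.1% ± 3.55 in IND, and the libraries ranged from 27.3% to 29.4% and from 31.1% to 37.9%. On day 10 it was 29.6% ± 1.14 and 36.7% ± 0.927, with ranges of 28.5% to 30.7% and 35.8% to 37.7%. The MMP share lay the other way, at 56.4% ± 0.992 in CTRL and 50.009% ± 2.43 in IND on day 8. It was at 53.6% ± 0.207 and 48.6% ± 2.09 on day 10, and it was lower in IND without overlap on each of the 5 days. The summed MMP FPKM itself was 226 (libraries 221 to 233) in CTRL and 224 (200.3 to 253) in IND on day 10, and the groups overlapped on days 8, 10, 12 and 14. On day 6 it was 196 (185 to 215) and 158 (149 to 164), with MMP2 at 95.2 and 68.6 FPKM and MMP14 at 37.3 and 40.4 FPKM. The summed ADAMTS FPKM of day 10 was 125 (118 to 134) and 169 (158 to 188). ADAMTS1 weighed most in it, at 22.4 FPKM in CTRL and 60.7 FPKM in IND. ADAMTS7, of uncertain counts, was at 21.1 and 35.8 FPKM, and ADAMTS9 lay the other way, at 20.2 and 9.84 FPKM. On day 8 the ADAMTS sum was 104 in CTRL and 136 in IND, and ADAMTS1 was at 22.3 and 45.5 FPKM. The difference in MMP share was -4.46 percentage points on day 6 and -1.89 on day 14. By day 14 the ADAMTS share was 31.4% ± 1.45 in CTRL and 32.9% ± 0.682 in IND, and the libraries overlapped. With 3 libraries a group an exact two-sided permutation test cannot go below p = 0.1. The MMP share reached that limit on all 5 days and the ADAMTS share on days 6, 8 and 10. The TIMP share reached it on day 6, at 15.5% in CTRL and 18.1% in IND, and on day 12, at 17.2% and 20.8%, with 24.1% in IND replicate 1. With this limit none of the 15 tests could pass 0.05.

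**Figure D4:**
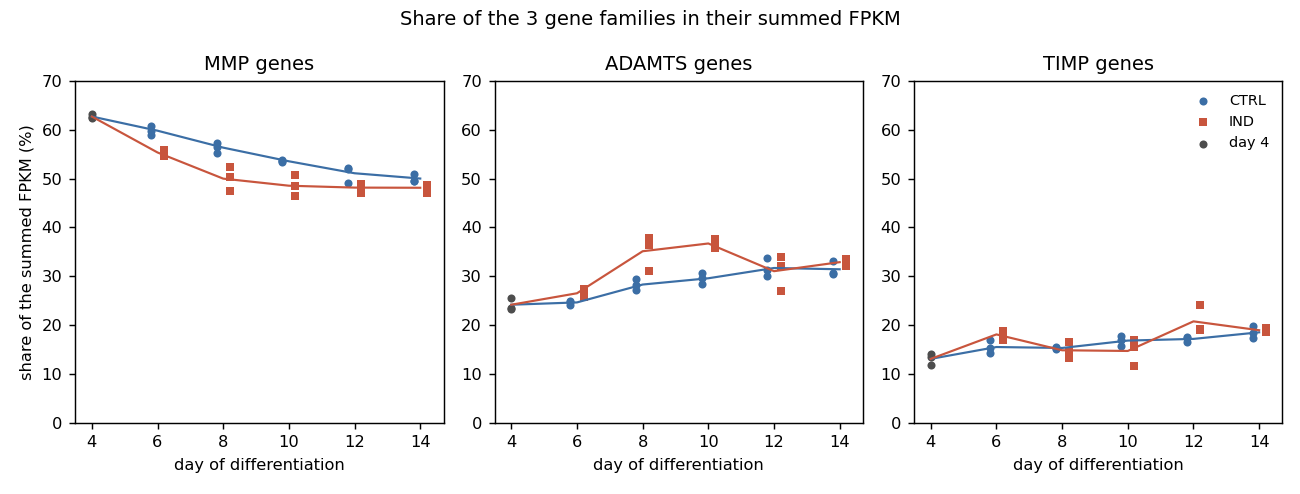
Share of the summed FPKM of all 46 members taken by MMP, ADAMTS and TIMP genes, in percent, by day; points are libraries and lines join group means. The ADAMTS share of IND lies above that of CTRL on days 8 and 10, and the MMP share below it.

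A list of 29 other genes of matrix proteolysis, among them the plasminogen system, proprotein convertases, procollagen processing, ADAMTS-like proteins and proteoglycan substrates, was read in the same fits. In CTRL against day 4, with 28 or 29 tested, 8, 15, 17, 21 and 19 were called higher on days 6 to 14 and 3, 3, 2, 2 and 2 lower. Over all genes these shares were 11.0% to 24.6% and 10.6% to 23.8%. BMP1, which removes the carboxyl-terminal propeptide of procollagens, rose from 30.9, 23.9 and 31.4 CPM to 103, 90.2 and 131 CPM on day 14 (log2 fold change 1.92 ± 0.17, adjusted p = 1.96e-05). RECK, a membrane-anchored inhibitor of MMPs, rose from 21.3, 24.4 and 15.5 to 35.1, 35.7 and 38.0 CPM (0.83 ± 0.17, adjusted p = 0.00311). In IND against CTRL, 1, 4, 1, 1 and 2 of 28 tested were higher and 1, 6, 0, 2 and 5 lower. Over all genes the shares were 7.49% and 6.67% on day 8, 3.21% and 5.22% on day 14, and at most 2.38% and 3.04% on the other days. On day 10, where edgeR called none lower, 5 were lower at an unadjusted p under 0.05. PLAT, tissue plasminogen activator, was at 536, 396 and 490.2 CPM in CTRL and 169.6, 132 and 92.7 CPM in IND on day 6 (log2 fold change -1.83 ± 0.23, adjusted p = 0.00645). On day 14 it was at 249, 295 and 465 CPM in CTRL and 419, 351 and 496 CPM in IND and did not pass the test (adjusted p = 0.537). PLAU, the urokinase, was lower on days 8 and 14, with 5.39, 5.48 and 5.03 against 9.16, 10.5 and 11.1 CPM on day 14 (-0.95 ± 0.16, adjusted p = 0.00207). Its receptor PLAUR was lower as well (-0.57 ± 0.13, adjusted p = 0.0122 on day 14). SERPINE2, an inhibitor of these activators, was higher on days 8 to 14, at 103, 124 and 132 against 47.8, 48.0 and 60.0 CPM on day 10 (1.21 ± 0.15, adjusted p = 0.0165).

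Of the proteoglycan substrates, VCAN (versican) was called in none of the 10 comparisons. It stood at 365, 378 and 301 CPM in CTRL and 676, 528 and 311 CPM in IND on day 8, with wide spread in IND. ACAN (aggrecan) was lower in IND on day 8, at 4.78, 4.73 and 3.78 against 9.89, 5.92 and 8.37 CPM (-0.85 ± 0.21, adjusted p = 0.0182). BCAN and NCAN, proteoglycans of the nervous system, were lower on day 14, with log2 fold changes of -1.81 ± 0.34 (adjusted p = 0.00987) and -2.00 ± 0.30 (adjusted p = 0.00129). The neural crest and glial markers were lower in the same libraries, as given above, and their part in these differences was not tested. RECK was called on no day between IND and CTRL.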

How the data were processed

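Libraries were poly(A)-selected and non-directional, and the 33 libraries hold 3 technical replicates in each of 11 groups. Per the labels and the study's methods, the authors trimmed reads with fastp 0.23.2, aligned them to GRCh38 with HISAT2 2.0.5 and assigned them to genes with featureCounts 1.5.0-p3. The deposited table holds raw counts per gene and FPKM, which the authors scaled by gene length and library total, and the places of the 46 members in it equal GENCODE 29. In edgeR 4.0.16 (R 4.3.3) each pair of groups was fitted on the counts by the robust quasi-likelihood test after filterByExpr and trimmed mean of M-values scaling, with Benjamini-Hochberg adjustment over all genes tested and a threshold of 0.05, and 4 interaction terms were tested over 30 libraries. Displayed CPM use scaling over all 33 libraries. Alternatives were DESeq2 1.42.0, limma 3.58.1 on log2(FPKM + 1), another scaling, other filters, 1 fit over all libraries, a replicate block and leaving out each library. Test values are given for members called between IND and CTRL with a mean of at least 1 CPM in the higher group, and for MMP2, MMP9, MMP14, ADAMTS1 and the TIMPs; values named beyond that rule were added after they were seen. The members and gene lists were chosen with earlier results of these data known. No pair of replicates agreed within sampling noise: over 33 pairs the chi-squared statistic divided by the number of genes was 7.82 to 245.9. Replicate numbers did not pair the groups, since correlations of deviations lay between -0.107 and 0.0781 and none of 15 passed 0.1. The scripts were tested on simulated counts with the same variability between replicates for all genes and no library standing apart. That checks the code and does not show how the calls hold in data like these. A gene of each of 2 lists is not reported here and stays out of their counts and sums.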

Additional observations from a re-analysis of the deposited data

Results flagged for a closer look

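The difference between IND and CTRL changed with the day in 3 members by the edgeR interaction test over days 6 to 14, in which the 4 terms were tested together. The adjusted p was 4.81e-05 for ADAMTS1, 0.0274 for ADAMTS16 and 0.0280 for ADAMTS19. ADAMTS1 and ADAMTS16 differed most on days 8 and 10 and ADAMTS19 on day 12, in the opposite direction. All 3 passed under DESeq2, the other scaling, both filters, limma and the replicate block, with adjusted p of at most 6.28e-05, 0.0266 and 0.0359. The fits without 1 library lost the call of ADAMTS16 in 11 of 30 cases and that of ADAMTS19 in 10 of 30, with adjusted p of at most 0.0769 and 0.0750, and none for ADAMTS1.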

How the results depend on the processing

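No member's log2 fold change in a called comparison turned its direction under any alternative run. Of 162 called values, 161 stayed called in DESeq2, 160 with size factors by relative log expression, 157 without a filter, 146 in 1 fit over all 33 libraries and 139 in limma, and over the 972 fits without 1 library 826 did. The filter at a mean of 50 counts kept 146 of 151. The number of members called between IND and CTRL moved by more than 1.5 times as follows, and the causes were not tested. Requiring calls to have log2 fold changes beyond ±1, a setting that by construction takes calls away, left 4 of 8 on day 6, 5 of 16 on day 8, 4 of 8 on day 12, 5 of 12 on day 14 and 9 of 15 in CTRL against day 4 on day 6. Over all genes it left 274 of 700, 1078 of 2752, 776 of 1080, 697 of 1606 and 1663 of 3963 in the same order. limma gave 4 on day 6 and 3 on day 10 (all genes 359 and 390). Day 10 depended most on the method, with 5 calls in the reported fit, 12 in DESeq2, 14 in the fit over all libraries and 0 with the replicate block, where 15 members kept an unadjusted p under 0.05 in edgeR. The calls over all genes moved the same way, at 404, 1787, 3325 and 15 in these fits. Without a filter day 12 gave 13 calls (all genes 1878). The interaction gave 6 members in DESeq2 and 9 without a filter (all genes 1283 and 2360, against 533 in the reported fit). Leaving out 1 library gave 5 to 8 calls on day 6, 12 to 18 on day 8, 0 to 18 on day 10, 4 to 18 on day 12 and 6 to 14 on day 14, 10 to 22 in CTRL against day 4 on day 6, and 1 to 5 for the interaction. Over all genes the ranges were 348 to 915, 1321 to 4732, 11 to 3768, 417 to 1979 and 905 to 1987 on days 6 to 14. They were 2312 to 5673 in CTRL against day 4 on day 6 and 340 to 1016 for the interaction. The replicate numbers are names only. The fit with them as a block gave 9, 17, 11 and 12 calls on days 6, 8, 12 and 14, and 0 on day 10. Over all genes it gave 922, 2966, 1363 and 1948 on days 6, 8, 12 and 14, and 15 on day 10. Set against MMP alone, the TIMP share was 17.3% on day 4, 27.0% in day 14 CTRL and 28.3% in day 14 IND. A change of scaling moved the median of all genes by at most 0.0151 on the log2 scale. Depth limits the 10 members below 1 CPM. Between IND and CTRL 9 of them were tested on no day, and MMP26 on 1 day without passing. MMP26 and TIMP4 entered the interaction test and did not pass it (adjusted p = 0.437 and 0.357). Every test is limited by 3 technical replicates of 1 differentiation.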
